A study of Homo sapiens with 21 samples.

Results

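The 8 genes described here are long noncoding RNAs that have been studied in liver cancer, namely H19, HULC, MALAT1, NEAT1, TUG1, NORAD, PVT1 and CYTOR. They were found by symbol through the Ensembl identifiers of the count table, and all 8 were present among its 37637 features. The filter on low counts kept 17951 features, and 7 of the 8 genes were among them. H19 was not, since its highest count in any library was 9. Across the 21 libraries the 8 genes together took 0.0957% to 0.234% of all counts.

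The study exposed HepG2 cells, an established human hepatocellular carcinoma line, to caffeine for 24 h. There were 7 groups of 3 biological replicates, at 0, 0.01, 0.1, 1, 10, 100 and 1000 µM caffeine. The 0 µM group is labelled as untreated and is called control here, and every group was kept in serum-free DMEM during the exposure. RNA was purified on poly(dT) beads before it was copied, and reads were counted per gene.

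Long noncoding RNAs are transcribed and spliced much like messenger RNAs but are not translated into a known protein. Several act where they are made. NEAT1 is the scaffold of paraspeckles, MALAT1 gathers in nuclear speckles, and others act in the cytoplasm, as NORAD does by binding Pumilio proteins. MALAT1 and the long form of NEAT1 end in a triple helix in place of a poly(A) tail, so selection on poly(dT) can capture them unevenly.

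Total counts per library ran from 23502519 to 44815552. Mitochondrial messenger RNAs differed between libraries of the same dose, and clustering on them gave 3 library sets. Set A comprised 11 libraries, in which these RNAs took 9.93% to 14.2% of counts: every library of control, 0.01 and 0.1 µM and the first 2 of 1 µM. Set B comprised 7 libraries with 4.70% to 4.93%: the last replicate of 1 µM, every library of 10 µM, replicate 2 of 100 µM and the first 2 of 1000 µM. Set C comprised 3 libraries with 11.7% to 12.8%: the other two of 100 µM and replicate 3 of 1000 µM. All control libraries were in set A and no 10, 100 or 1000 µM library was. Replicate 3 at 1 µM is the only library that links set A with set B within a dose, so at those doses a difference from control and a difference between sets cannot be told apart without resting on it. Each comparison is therefore given without a set term and with the set as a term in the model, and the doses that share a set are also compared within it. The hepatocyte markers matched the label: all 10 of the list were present, with a summed level of 28205 to 42869 CPM (the count as a proportion of the TMM-scaled library size, in the usual CPM unit). Of the markers of other cell types, COL1A1, COL3A1, DCN, VWF, CDH5 and PTPRC were each at or under 0.249 CPM in every library and CD3E was at 0, while CD68 reached 71.7 CPM and PDGFRB 23.5 CPM. At 1000 µM against control 2 of the 10 hepatocyte markers rose and 6 fell, with and without the set term, or 80% called against 57.6% of all features (38% with the term). PDGFRB rose and CD68 fell, and the part of this in the results below was not tested.

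The genes differ widely in level. In control cells and per kilobase of merged exons, NORAD was highest at 147 ± 11.1 CPM per kb (SD, n = 3, as for every mean below), then MALAT1 at 28.3 ± 4.17, TUG1 at 17.9 ± 1.98 and NEAT1 at 3.04 ± 0.328 CPM per kb. PVT1 followed at 1.19 ± 0.162 and CYTOR at 0.407 ± 0.0478 CPM per kb. HULC stood at 0.0228 ± 0.00594 and H19 at 0.00352 ± 0.00609 CPM per kb. From NORAD down to HULC no neighbours in this order overlapped in the 3 control libraries. The 1, 0 and 0 counts of H19 do not separate it from HULC at a floor of 3 counts. The lowest and highest library of the whole series were 8.46-fold apart for NEAT1, 2.77-fold for MALAT1, 2.47-fold for NORAD and 1.5-fold for TUG1.

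**Figure D1:**
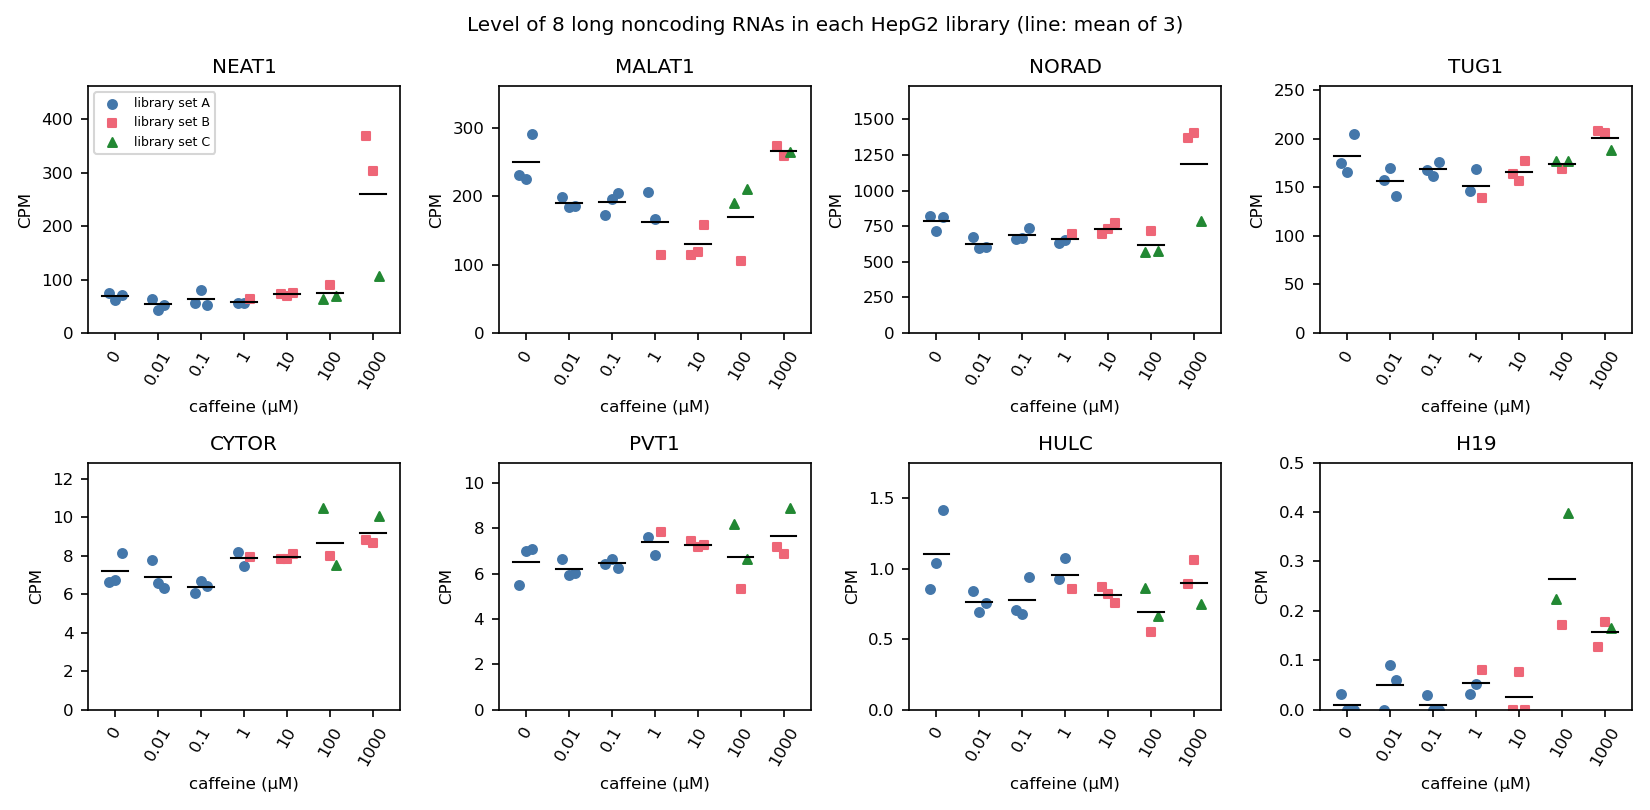
Level of each of the 8 long noncoding RNAs in every library, in CPM on a linear axis from 0, against the caffeine concentration in µM (categories, not to scale). Points are single libraries, their shape and colour give the library set, and lines are means of 3 libraries; at 1000 µM the NEAT1 libraries are at 369, 304 and 107 CPM, and MALAT1 is lowest in the set B libraries below 1000 µM.

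NEAT1 showed the largest change of the 7 tested genes at 1000 µM. It lies on chromosome 11, chr11:65422774-65445540 on the forward strand (GRCh38, GENCODE 29), 52147 bases before MALAT1. Control libraries had 75.4, 60.9 and 71.4 CPM, and 1000 µM libraries had 369, 304 and 107 CPM. All 3 libraries at 1000 µM were above all 3 controls, the library of set C much less so than the 2 of set B. At the lower doses NEAT1 lay between 43.6 and 90.0 CPM, on both sides of the control range. In edgeR's quasi-likelihood test with Benjamini-Hochberg adjustment, NEAT1 rose at 1000 µM by a log2 fold change of 1.91 ± 0.31 (SE, adjusted p = 6.21e-05). With the set term the value was 1.93 ± 0.41 (adjusted p = 0.00192). In bulk RNA a change in every cell and a change in some cells cannot be told apart, here or below.

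Within set B, where mitochondrial shares were alike, NEAT1 went from 72.4, 70.1 and 74.7 CPM at 10 µM to 369 and 304 CPM at 1000 µM. The groups did not overlap, and the log2 fold change was 2.18 ± 0.08 (adjusted p = 2.69e-09). Against 100 µM, a comparison that uses no control library, NEAT1 was higher by 1.80 without the set term (adjusted p = 1.93e-04) and by 1.30 ± 0.25 with it (adjusted p = 6.14e-04). The fold from 100 to 1000 µM was 3.73 in set B and 1.60 in set C, each with a single library on 1 side, and the difference between the sets was not tested. Without replicate 2 at 100 µM, the only set B library of that dose, the value with the set term was 0.68 (adjusted p = 0.036). Over the 20 fits with the set term and 1 library left out, it ran from 0.68 to 1.90.

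NORAD, the most abundant of the group, was the other gene that rose at 1000 µM in each fit run. It is a single-exon gene at chr20:36045622-36050960 on the reverse strand. Its transcript is known as a decoy that holds many binding sites of Pumilio, a protein family that represses messenger RNAs. The GENCODE 29 transcript of 5339 bases held 15 matches to the Pumilio element TGTANATA on the transcribed strand, or 2.81 per kilobase. Of 283 long noncoding RNA genes whose longest transcript had at least 5000 bases, 4 held at least as many, NORAD itself counted, and the median was 1. Among the other genes of the group, NEAT1 held 6 and TUG1 2, and the longest transcripts of the remaining 5 held none. Of the 15, 10 read TGTATATA, 4 TGTAAATA and 1 TGTACATA. The first 5 are shown with their flanks because they cover all 3 spellings, and capitals mark the element.
NORAD position 761: gaaggcctgTGTATATAatatgaaaa
NORAD position 1140: tcactactgTGTATATAgttgacaat
NORAD position 1241: atcacatttTGTAAATAcctttttgt
NORAD position 1442: acttatctgTGTATATAgtgtacata
NORAD position 1451: tgtatatagTGTACATAaaggacaga

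The control libraries had 822, 717 and 816 CPM of NORAD, and the 1000 µM libraries 1369.5, 1403 and 786 CPM. The 2 set B libraries were above all controls, whereas the set C library lay within the control range. NORAD was higher at 1000 µM than in control by a log2 fold change of 0.60 ± 0.15 (adjusted p = 0.00232), and by 0.64 ± 0.16 with the set term (adjusted p = 0.00411). Within set B it went from 698, 728 and 771 CPM at 10 µM to 1369.5 and 1403 CPM, a log2 fold change of 0.89 ± 0.05 (adjusted p = 2.6e-08). At 100 µM the 2 set C libraries had 568 and 575 CPM and the set B library 719 CPM. From there to 1000 µM NORAD rose by 0.93 (adjusted p = 5.95e-05), and with the set term by 0.70 ± 0.10 (adjusted p = 5.78e-06). The fold was 1.93 in set B and 1.38 in set C. Without replicate 2 at 100 µM the value with the set term was 0.46 (adjusted p = 0.0025).

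NORAD was also the only gene of the group called at a low dose. At 0.01 µM its libraries had 675, 599.6 and 600.4 CPM, all below the 3 controls. The log2 fold change of -0.33 passed with the set term (adjusted p = 0.0481), and was not called without it (adjusted p = 0.317) or within set A alone, at -0.32 (adjusted p = 0.0909).

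NORAD shares sequence with other genes, which can split or add reads where the counting is not known. Of its 50-base stretches, 35.3% occur in another annotated gene, most often OVCH1-AS1 with 22.7%. OVCH1-AS1 itself was at 0.782 ± 0.127 CPM in control and 3.63 ± 1.44 CPM at 1000 µM, far below NORAD.

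MALAT1, the nuclear speckle RNA first described in metastatic lung tumours, differed between library sets within a dose. It lies at chr11:65497688-65506516 on the forward strand. Control libraries had 231, 226 and 292 CPM, and 10 µM libraries 115, 119 and 159 CPM, with no overlap. At 1 µM the 2 set A libraries had 207 and 167 CPM and the set B library 114 CPM. At 100 µM the 2 set C libraries had 191 and 211 CPM and the set B library 106 CPM. The 5 set B libraries below 1000 µM were thus at 106 to 159 CPM, below every library of sets A and C, and the set A libraries of 0.01 and 0.1 µM were at 172 to 205 CPM.

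At 10 µM MALAT1 was lower than control by a log2 fold change of -0.93 ± 0.22 (adjusted p = 0.0112) without the set term. With the set term the value was -0.21 ± 0.30 (adjusted p = 1). The call was also lost without 10 µM replicate 1 (adjusted p = 0.0567) or replicate 2 (adjusted p = 0.0506). At 100 µM MALAT1 was lower by -0.56 ± 0.22 (adjusted p = 0.0422), and the set term gave -0.20 ± 0.33 (adjusted p = 0.75). Leaving out 1 library at a time ended the 100 µM call in 9 of 21 cases, with adjusted p values from 0.0173 to 0.178 over all 21. It was also lost with all features unfiltered (adjusted p = 0.112) and with only the 2 groups fitted (adjusted p = 0.111). The part of the set difference in these values cannot be told apart from the dose, since no library set holds both control and 10 or 100 µM.

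At 1000 µM MALAT1 was within the control range in all 3 libraries, at 274, 260 and 265 CPM. Its log2 fold change against control was 0.09 ± 0.22 (adjusted p = 0.734), with a 95% interval from -0.33 to 0.52. With the set term it was 0.67 ± 0.31 (adjusted p = 0.0981), interval 0.07 to 1.28, and with a replicate block added to that term 0.91 (adjusted p = 0.0382). Within set B, the 2 libraries at 1000 µM (274 and 260 CPM) were above all 3 at 10 µM, with a log2 fold change of 0.99 ± 0.16 (adjusted p = 0.00553). Against 100 µM MALAT1 rose by 0.66 (adjusted p = 0.021), and by 0.87 ± 0.19 with the set term (adjusted p = 0.00128). Both calls were lost without 100 µM replicate 2, at 0.41 (adjusted p = 0.0855) and 0.40 (adjusted p = 0.115), and the first also without 1000 µM replicate 1 (adjusted p = 0.0567), with all features unfiltered (adjusted p = 0.0565) or with only the 2 groups fitted (adjusted p = 0.0757). Without 1000 µM replicate 3 the value with the set term was 1.33 (adjusted p = 2.84e-05).

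The ratio of NEAT1 to MALAT1, neighbours transcribed from the same strand, was 0.236 to 0.411 in the 11 set A libraries. In set B it was 0.561 at 1 µM, 0.631, 0.589 and 0.471 at 10 µM, and 0.853 at 100 µM. In the 2 set B libraries at 1000 µM it was 1.35 and 1.17. The 3 set C libraries stood at 0.337, 0.331 and 0.405, the last at 1000 µM. In set B the ratio was thus highest at 1000 µM, and in set C all doses lay within the range of set A.

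TUG1, named for its upregulation by taurine in the retina, had the narrowest range of levels in the group. It lies at chr22:30969245-30979395 on the forward strand and shares a bidirectional promoter with the protein-coding gene MORC2. Control libraries had 175, 166 and 204 CPM, and 1000 µM libraries 208, 205 and 189 CPM, which overlapped. The log2 fold change was 0.14 ± 0.09 (adjusted p = 0.197), and 0.33 ± 0.16 with the set term (adjusted p = 0.112). Without control replicate 3 it was 0.24 (adjusted p = 0.0387). Within set B TUG1 rose from 164, 156 and 177 CPM at 10 µM to 208 and 205 CPM at 1000 µM, by 0.29 ± 0.06 (adjusted p = 8.85e-04). MORC2, a silencing factor read from the opposite strand of the same promoter, went from 35.7 ± 2.65 CPM in control to 57.4 ± 1.46 CPM at 1000 µM, a log2 fold change of 0.68 (adjusted p = 1.53e-06; 0.66 and 0.0016 with the set term). AC004542.2, which overlaps TUG1 on the opposite strand, shares 4.18% of the 50-base stretches of TUG1. Reads of the pair cannot be told apart if strand was not used in counting.

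NEAT1, MALAT1, TUG1 and NORAD all rose within set B from 10 to 1000 µM, and RefSeq promoters of the last 3 are shown, for MALAT1 the first of its 2 windows (GRCh38.p14, from 250 bases before to 50 bases after the start, in the direction of transcription). They come from chr11:65497488-65497787 (forward strand), chr22:30969015-30969314 (forward strand) and chr20:36050911-36051210 (reverse strand). Capitals mark matches on either strand to 5 motifs. The first is TGACGTCA, the full cAMP response element, and the next its short form TGACG, which every full match also holds. The others are GCGTG, which is the core bound by the aryl hydrocarbon receptor, CACGTG, known as the E-box, and TGANTCA, the site of AP-1.
MALAT1: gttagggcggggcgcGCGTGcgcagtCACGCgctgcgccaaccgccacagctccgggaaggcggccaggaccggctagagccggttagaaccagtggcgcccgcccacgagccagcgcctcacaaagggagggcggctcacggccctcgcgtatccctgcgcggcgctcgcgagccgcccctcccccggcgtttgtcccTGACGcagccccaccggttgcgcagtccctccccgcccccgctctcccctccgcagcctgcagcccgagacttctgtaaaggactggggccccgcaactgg
TUG1: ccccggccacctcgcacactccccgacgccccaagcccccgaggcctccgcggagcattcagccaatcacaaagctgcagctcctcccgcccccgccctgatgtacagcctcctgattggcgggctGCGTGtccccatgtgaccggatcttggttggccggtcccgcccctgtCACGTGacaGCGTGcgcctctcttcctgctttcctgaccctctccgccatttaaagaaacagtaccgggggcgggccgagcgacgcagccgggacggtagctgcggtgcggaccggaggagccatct
NORAD: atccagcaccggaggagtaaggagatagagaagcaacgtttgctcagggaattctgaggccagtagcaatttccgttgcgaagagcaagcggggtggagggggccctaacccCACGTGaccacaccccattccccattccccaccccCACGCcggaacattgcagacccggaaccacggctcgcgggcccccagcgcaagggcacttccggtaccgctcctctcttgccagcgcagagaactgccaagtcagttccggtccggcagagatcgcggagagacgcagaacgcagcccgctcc

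TGACG occurred in the MALAT1 window, 51 bases before the start, and GCGTG in all 3 windows. CACGTG stood 77 bases before the start of TUG1 and 138 bases before that of NORAD. No window held the full cAMP response element or the AP-1 site. Of 35116 RefSeq promoters of the same length, 24.6% held the short form of the cAMP response element, 1.85% its full form, 36.5% the aryl hydrocarbon receptor core, 7.26% the E-box and 7.71% the AP-1 site. The matches describe letters in these windows and were not tested for binding.

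CYTOR, a cytoplasmic RNA linked to proliferation, lies at chr2:87454781-87636740 on the forward strand. Control libraries had 6.66, 6.75 and 8.17 CPM, and 1000 µM libraries 8.83, 8.68 and 10.1 CPM. The groups did not overlap, although the highest control was close to the lowest treated library. CYTOR was higher at 1000 µM by a log2 fold change of 0.36 ± 0.12 (adjusted p = 0.0203), and with the set term by 0.27 ± 0.21, which was not called (adjusted p = 0.348). The call was also lost without control replicate 1 (adjusted p = 0.0857), control replicate 2 (adjusted p = 0.0806) or 1000 µM replicate 3 (adjusted p = 0.079), and with only the 2 groups fitted (adjusted p = 0.0751). Within set B, where 10 µM libraries had 7.83, 7.86 and 8.11 CPM, the value was 0.11 ± 0.09 (adjusted p = 0.318). CYTOR has a near copy on the same chromosome, MIR4435-2HG, which holds 16.0% of its 50-base stretches. MIR4435-2HG fell from 34.7 ± 4.88 CPM in control to 22.3 ± 0.976 CPM at 1000 µM, a log2 fold change of -0.64 (adjusted p = 7.91e-06; -0.65 and 0.0029 with the set term). The counts of both are uncertain by the share of reads that fit either gene.

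PVT1 lies next to MYC on chromosome 8 and is often gained together with it in tumours. Control libraries had 5.50, 6.98 and 7.09 CPM, and 1000 µM libraries 7.19, 6.87 and 8.91 CPM. The groups overlapped, and the log2 fold change was 0.23 ± 0.14 (adjusted p = 0.175; -0.03 and 0.926 with the set term). At 100 µM PVT1 was at 8.21 and 6.66 CPM in set C and 5.31 CPM in set B. From 100 to 1000 µM it rose by 0.33 ± 0.12 with the set term (adjusted p = 0.0229), whereas the value without the term was 0.19 (adjusted p = 0.29). The call was lost without any 1 of 100 µM replicate 2 (adjusted p = 0.28) or 3 (0.071) or 1000 µM replicate 1 (0.0602) or 3 (0.0534), and with all features unfiltered (0.154). Within set B the value from 10 to 1000 µM was -0.08 ± 0.10 (adjusted p = 0.492).

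The identifier matched to HULC spans chr6:8435568-9294133 on the forward strand and carries the name AL591485.1 in GENCODE 29, with 48.4 kb of merged exons. RefSeq places the short HULC RNA, described as highly upregulated in liver cancer, at chr6:8652269-8653856, inside this locus. The counts are therefore those of the long locus and cannot be assigned to the short RNA. They were low, from 15 to 41 per library. Control libraries had 0.856, 1.04 and 1.42 CPM, and 100 µM libraries 0.862, 0.554 and 0.662 CPM, with the first of these just above the lowest control. The locus was lower at 100 µM by a log2 fold change of -0.68 ± 0.24 (adjusted p = 0.025), and by -0.48 ± 0.46 with the set term, which was not called (adjusted p = 0.524). The call was also lost with DESeq2 (adjusted p = 0.062), with all features unfiltered (0.115) and with only the 2 groups fitted (0.105), and the locus is not tested at a minimum mean of 5 CPM. It was lost as well without control replicate 3 (0.142), 100 µM replicate 2 (0.122) or 100 µM replicate 3 (0.0635). At 1000 µM it had 0.893, 1.06 and 0.746 CPM, within or below the control range, and -0.28 ± 0.23 on the log2 scale (adjusted p = 0.311).

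H19, the maternally expressed imprinted RNA that is abundant in fetal liver, was nearly silent in these cells. It lies at chr11:1995176-2001470 on the reverse strand. The control libraries had 1, 0 and 0 counts, which allows up to 0.0779 to 0.115 CPM at a floor of 3 counts per library. The 10 µM libraries had 0, 3 and 0 counts, the 100 µM libraries 6, 8 and 9, and the 1000 µM libraries 5, 5 and 4. Every library at 100 or 1000 µM had more counts than any library at a lower dose, where the highest count was 3. The ratio to control was 23.3 at 100 µM (exact 95% binomial interval 3.78 to 958) and 14.9 at 1000 µM (2.26 to 629). These intervals cover counting error only. In a fit without the filter on low counts, over 35112 features, H19 was called at 100 µM (adjusted p = 0.00286) and at 1000 µM (adjusted p = 0.0155). That fit had no set term, and its p-values are less certain at counts of 0 to 9 per library. The share of all features called in it is not given here. The 3 highest doses lie in sets B and C and control in set A, and within set B the 10 µM libraries had 0, 3 and 0 counts against 5 and 5 at 1000 µM.

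**Figure D2:**
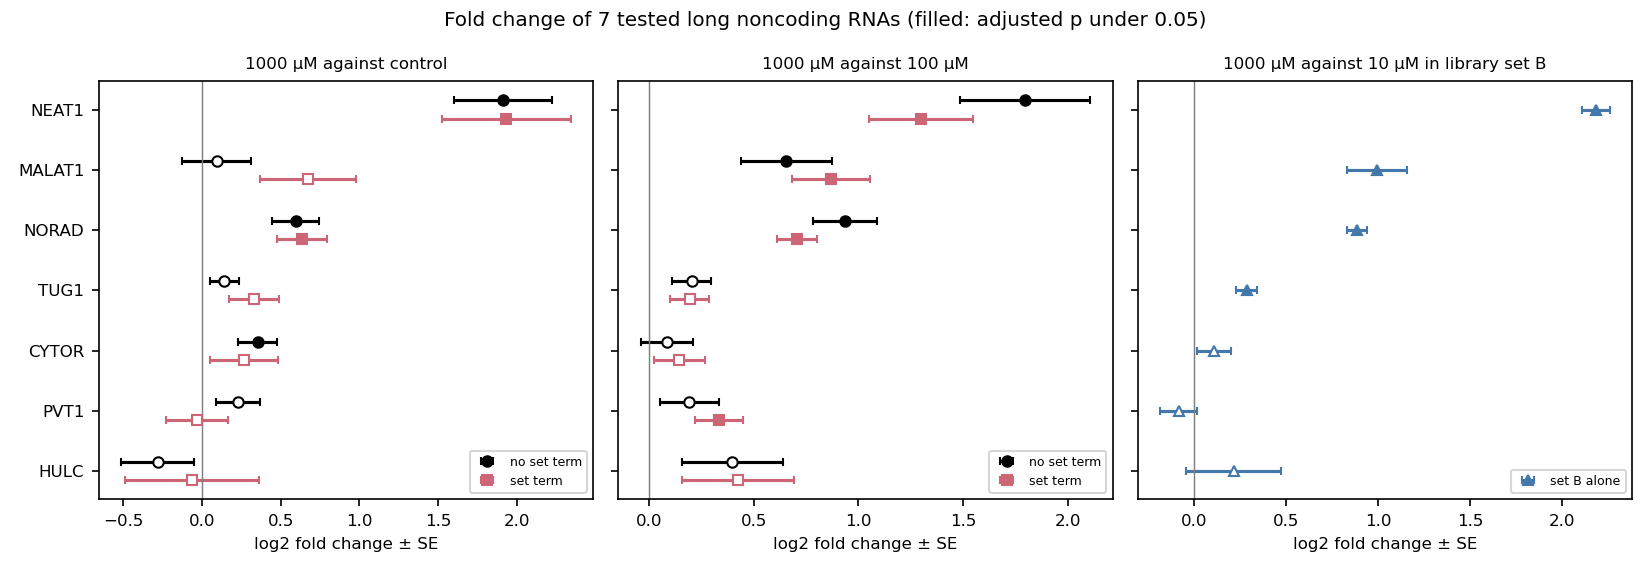
Log2 fold change of the 7 tested genes with its standard error, for 1000 µM against control, for 1000 against 100 µM, and for 1000 against 10 µM within library set B. Circles are fits without and squares fits with the library set as a term, triangles the set B fit, and filled symbols have an adjusted p under 0.05; NEAT1 and NORAD are filled throughout.

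The number of genes called at each dose is set here beside the share of all tested features that was called. In edgeR's quasi-likelihood test none was called at 0.01 µM (0.0279% of all tested features were), 0.1 µM (0%) or 1 µM (0.106%), where 3, 1 and 2 had an unadjusted p under 0.05. DESeq2 and limma-voom also called 0 at these doses. At 10 µM 1 of 7 was called, MALAT1, in the lower direction, against 14.8% of all features and 7.49% lower. At 100 µM 2 were called lower, MALAT1 and HULC, against 46.6% and 22.9% lower. At 1000 µM 3 were called higher, NEAT1, NORAD and CYTOR, against 57.6% and 28.5% higher. The median log2 fold change of all 7 tested genes at 1000 µM was 0.23, and that of all tested features -0.01. In the comparison of 1000 with 100 µM, 3 were higher, against 44% called and 21.8% higher. The joint test over the 6 doses called 5 of 7, all but HULC and PVT1, against 73.6%.

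With the set term, NORAD alone was called at 0.01 µM, lower, against 3.02% of features and 2.18% lower. None was called at 0.1 µM (0.0223%), 1 µM (0.629%), 10 µM (0.0279%) or 100 µM (17.3%), where 2, 3, 0 and 0 had an unadjusted p under 0.05. At 1000 µM 2 were called higher, NEAT1 and NORAD, against 38% and 18.2% higher. Against 100 µM 4 were higher, NEAT1, MALAT1, NORAD and PVT1, against 46.3% and 22.4% higher. The joint test called 4, NEAT1, MALAT1, TUG1 and NORAD, against 59.8%. Within set A alone none was called at 0.01 µM (0.104%), 0.1 µM (0%) or 1 µM (0%), and 3, 2 and 2 genes there passed 0.05 before adjustment. In set B, 4 of 7 were higher at 1000 than at 10 µM, against 65.1% and 31.5% higher.

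Across the 21 libraries, the log2 levels of NEAT1 and NORAD had a Pearson r of 0.915, the highest among the pairs of tested genes. PVT1 and CYTOR had 0.698, and the neighbours NEAT1 and MALAT1 0.366. Outside the group, the annotated genes of at least 5 CPM most like NEAT1 were AUH (r = 0.956), VHL (0.953) and SRSF1 (0.947), and those most like NORAD were GFPT1 (0.966), TOMM70 (0.963) and ZNF770 (0.958). MALAT1 was most like PTPN12 and FRA10AC1 (0.915 each) and RAB5A (0.909), and TUG1 most like EEA1 (0.934), PHF3 (0.924) and JMJD1C (0.917). These values describe libraries that share doses and library sets, and about 10864 genes were compared for each.

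The genes that work with these RNAs were taken from lists. Of 18 tested paraspeckle proteins, which bind NEAT1, 9 rose and 3 fell at 1000 µM, and with the set term 12 rose and none fell. Either way 66.7% of the list was called, against 57.6% of all features without the set term and 38% with it in the comparison of 1000 µM with control. The list's median log2 fold change was 0.21, and 0.44 with the set term, where that of all features was -0.03. SFPQ, a core protein needed for paraspeckle assembly, was at 333 ± 9.98 CPM in control and 347 ± 29.3 CPM at 1000 µM. Its log2 fold change was 0.06 (adjusted p = 0.617), and 0.58 with the set term (adjusted p = 3.67e-04). NONO, its partner, rose from 417 ± 17.4 to 507 ± 8.03 CPM (0.28, adjusted p = 7.09e-04). RBM12 rose from 51.9 ± 2.71 to 83.1 ± 3.08 CPM (0.68, adjusted p = 4.12e-06), and the cleavage factor subunits CPSF6 (0.48, adjusted p = 1.44e-05) and NUDT21 (0.51, adjusted p = 4.97e-04) rose as well. TARDBP, which also binds many introns, rose by 0.46 (adjusted p = 5.89e-05). The 3 that fell were SMARCA4 (-0.48, adjusted p = 0.00229), PSPC1 (-0.31, adjusted p = 0.0218) and RBM14 (-0.27, adjusted p = 0.0453). With the set term they were not called (adjusted p = 0.174, 0.755 and 0.986). From 100 to 1000 µM, the interval in which NEAT1 rose, the same list had 4 higher and 3 lower with the set term, or 38.9% called against 46.3% of all features. Its median was 0.03, with 0.01 for all features.

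Of 14 nuclear speckle and splicing proteins, the partners of MALAT1, 5 rose and 5 fell at 1000 µM, or 3 and 2 with the set term. That is 71.4% called against 57.6% of all features, and 35.7% against 38% with the term, which is near the background. The splicing factor RBM25 rose from 120.4 ± 19.02 to 234 ± 5.12 CPM (0.96, adjusted p = 3.27e-08), and the SR protein kinase CLK1 from 30.7 ± 6.16 to 56.0 ± 7.12 CPM (0.87, adjusted p = 7.63e-06). The spliceosome proteins PRPF6 and U2AF2 fell, PRPF6 from 379 ± 42.5 to 190.0 ± 1.41 CPM (-1.0, adjusted p = 1.75e-07) and U2AF2 from 197 ± 15.4 to 117 ± 10.0 CPM (-0.75, adjusted p = 2.2e-07). The list held calls in both directions, with a median of 0.01, and of 0.19 with the set term.

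Of 8 proteins that bind NORAD or its complex, 6 rose and 2 fell at 1000 µM, or 5 and 1 with the set term. The called share was 100% against 57.6% of all features, and 75% against 38% with the term. PUM2, a Pumilio protein, had 144, 141 and 169 CPM in control and 263, 266 and 209.6 CPM at 1000 µM, without overlap, a log2 fold change of 0.70 (adjusted p = 7.52e-06; 0.59 and 0.00157 with the set term). RBMX, which binds NORAD in the nucleus, rose from 223 ± 18.6 to 328 ± 4.89 CPM (0.55, adjusted p = 9.92e-07). The export factor ALYREF fell from 82.6 ± 11.2 to 31.2 ± 2.95 CPM (-1.41, adjusted p = 1.84e-07; -0.78 and 0.00506 with the set term).

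Of 9 genes of Polycomb repressive complex 2 (PRC2), which TUG1 has been reported to bind, and of TUG1's neighbours and partners, 5 rose and 1 fell at 1000 µM, or 2 and 1 with the set term. These are 66.7% against 57.6% of all features and, with the term, 33.3% against 38%, so the list was near the background. PPARGC1A, a coactivator of mitochondrial and gluconeogenic genes, had 18.2, 16.4 and 19.4 CPM in control and 75.1, 77.6 and 62.7 CPM at 1000 µM. All treated libraries were above all controls in this gene, with a log2 fold change of 2.0 (adjusted p = 7.82e-11; 2.18 and 2.4e-07 with the set term). JARID2, a PRC2 cofactor, fell from 46.9 ± 1.83 to 25.6 ± 0.780 CPM (-0.87, adjusted p = 1.87e-07). EZH2, the catalytic subunit, was at 23.5 ± 2.34 and 23.2 ± 1.07 CPM (-0.02, adjusted p = 0.872). The chaperone RBBP4 rose by 0.36 (adjusted p = 0.00617), and with the set term was at -0.09 (adjusted p = 0.61).

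Of 10 genes of the MYC group, 4 rose and 3 fell at 1000 µM, or 5 and 3 with the set term. Thus 70% were called against 57.6% of all features, and 80% against 38% with the term. MYC itself rose. Its libraries had 176, 197 and 167 CPM in control and 240.0, 239 and 305 CPM at 1000 µM, without overlap, a log2 fold change of 0.54 (adjusted p = 0.00143; 1.08 and 4.38e-05 with the set term). MXD1, which opposes MYC, rose from 51.2 ± 3.24 to 76.3 ± 11.3 CPM (0.58, adjusted p = 3.23e-05). The textbook MYC targets NCL (-0.53, adjusted p = 7.74e-05), ODC1 (-0.38, adjusted p = 4.8e-04) and LDHA (-0.39, adjusted p = 5.41e-04) fell, and NCL was at -0.06 with the set term (adjusted p = 0.703).

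HULC is known to be activated through CREB and degraded with the help of IGF2BP1. Of 13 genes of this list 3 rose and 4 fell at 1000 µM, or 4 and 4 with the set term. The share called, 53.8%, was near the 57.6% of all features, and with the term it was 61.5% against 38%. CREB1 rose from 27.9 ± 2.86 to 59.6 ± 7.15 CPM (1.10, adjusted p = 1.04e-08), and IGF2BP1 from 185 ± 4.10 to 338 ± 12.2 CPM (0.87, adjusted p = 3.43e-07). CREM, which codes for both activators and repressors at CRE sites, fell from 36.5 ± 2.80 to 20.6 ± 1.83 CPM (-0.82, adjusted p = 1.48e-06). The glycolytic enzyme PKM fell from 968 ± 108 to 521 ± 61.6 CPM (-0.89, adjusted p = 2.6e-06). All 4 kept their direction and call with the set term, at 1.28, 0.57, -0.67 and -0.40.

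Of 16 imprinted genes and their regulator CTCF, 13 were tested, and 5 rose and 3 fell at 1000 µM, or 4 and 3 with the set term. At 61.5% the share called was near the 57.6% of all features, and with the term it was 53.8% against 38%. IGF2, the paternally expressed neighbour of H19, was at 89.4 ± 30.3 CPM in control and 55.4 ± 19.5 CPM at 1000 µM (-0.69, adjusted p = 0.0168; -0.32 and 0.582 with the set term). GRB10, an adaptor that restrains insulin signalling, had 4.19, 4.78 and 4.26 CPM in control, 10.1, 9.96 and 10.9 CPM at 100 µM and 29.03, 30.6 and 36.2 CPM at 1000 µM. The 3 doses did not overlap, and the log2 fold change at 1000 µM was 2.85 (adjusted p = 1.68e-13; 2.80 and 1.33e-09 with the set term). MEST rose by 1.08 (adjusted p = 1.17e-09), the antisense RNA KCNQ1OT1 rose from 46.4 ± 9.79 to 102 ± 24.6 CPM (1.14, adjusted p = 2.86e-05), and DLK1 fell by 0.65 on the log2 scale (adjusted p = 0.00158).

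**Figure D3:**
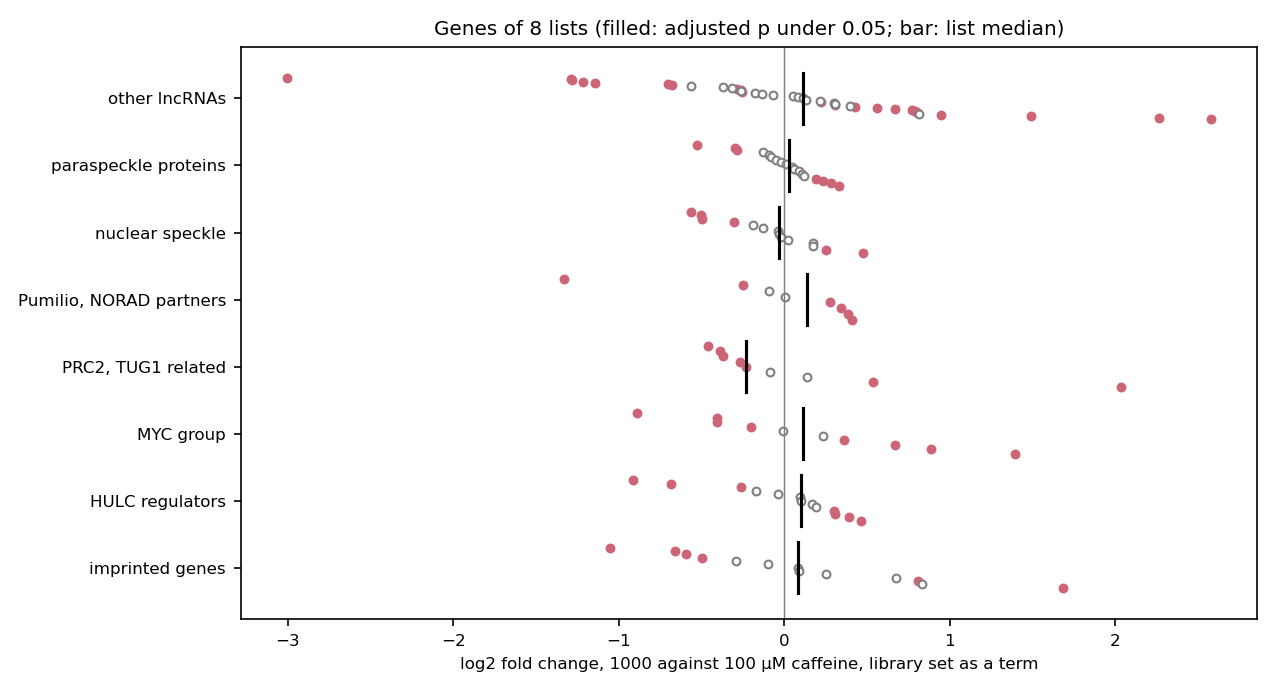
Log2 fold change between 1000 and 100 µM with the library set as a term, 1 point for each tested gene of the 8 lists. Filled points have an adjusted p under 0.05 and the vertical bars are list medians; every list holds filled points on both sides of 0.

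A wider list held other long noncoding RNAs studied in liver cancer. Of 69 listed, 59 were in the table and 39 were tested. At 1000 µM 18 rose and 11 fell, or 12 and 7 with the set term, which is 74.4% called against 57.6% of all features and 48.7% against 38%. The list's medians were 0.19 and 0.39, and those of all features -0.01 and -0.03. LUCAT1 had 1.497, 1.04 and 1.34 CPM in control and 4.85, 4.71 and 3.94 CPM at 1000 µM (1.80, adjusted p = 2.24e-07). MIR210HG, host of the hypoxia-induced miR-210, had 2.14, 2.39 and 1.92 CPM in control and 0.383, 0.319 and 0.456 CPM at 1000 µM (-2.48, adjusted p = 2.08e-07). JPX and FTX, neighbours in the X inactivation centre, rose by 1.70 (adjusted p = 2.89e-09) and 1.20 (adjusted p = 1.79e-08), and LINC00511 and DLEU1 by 0.96 (adjusted p = 1.2e-08) and 0.93 (adjusted p = 3.36e-07). These 6 kept their direction and call with the set term. Its values were 1.73 for LUCAT1, -3.45 for MIR210HG, 1.46 for JPX, 1.09 for FTX, 0.91 for LINC00511 and 0.85 for DLEU1.

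At 100 µM 15 genes of this list rose and 9 fell, 61.5% called against 46.6% of all features. With the set term 5 rose and 3 fell, 20.5% against 17.3%, which is near the background. The 4 named here had the smallest p at this dose. UCA1 had 7.79, 7.19 and 8.09 CPM in control, 1.09, 0.512 and 1.06 CPM at 100 µM and 2.65, 3.65 and 4.31 CPM at 1000 µM. At 100 µM it fell by 3.18 on the log2 scale (adjusted p = 3.6e-09) and was higher again at 1000 than at 100 µM, by 2.05 (adjusted p = 1.1e-06). DLEU2 had 1.68, 1.43 and 1.61 CPM in control, 7.57, 5.09 and 6.49 CPM at 100 µM and 2.58, 2.62 and 2.78 CPM at 1000 µM. It rose at 100 µM by 2.02 (adjusted p = 3.9e-08) and fell from there to 1000 µM by 1.26 (adjusted p = 7.66e-06). TMPO-AS1 rose at 100 µM by 1.67 (adjusted p = 1.55e-05) and MIR22HG fell by 0.83 (adjusted p = 7.2e-06). All 4 kept the direction and call of their 100 µM change with the set term. The values with it were -3.03 for UCA1, 2.14 for DLEU2, 2.28 for TMPO-AS1 and -0.94 for MIR22HG.

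**Figure D4:**
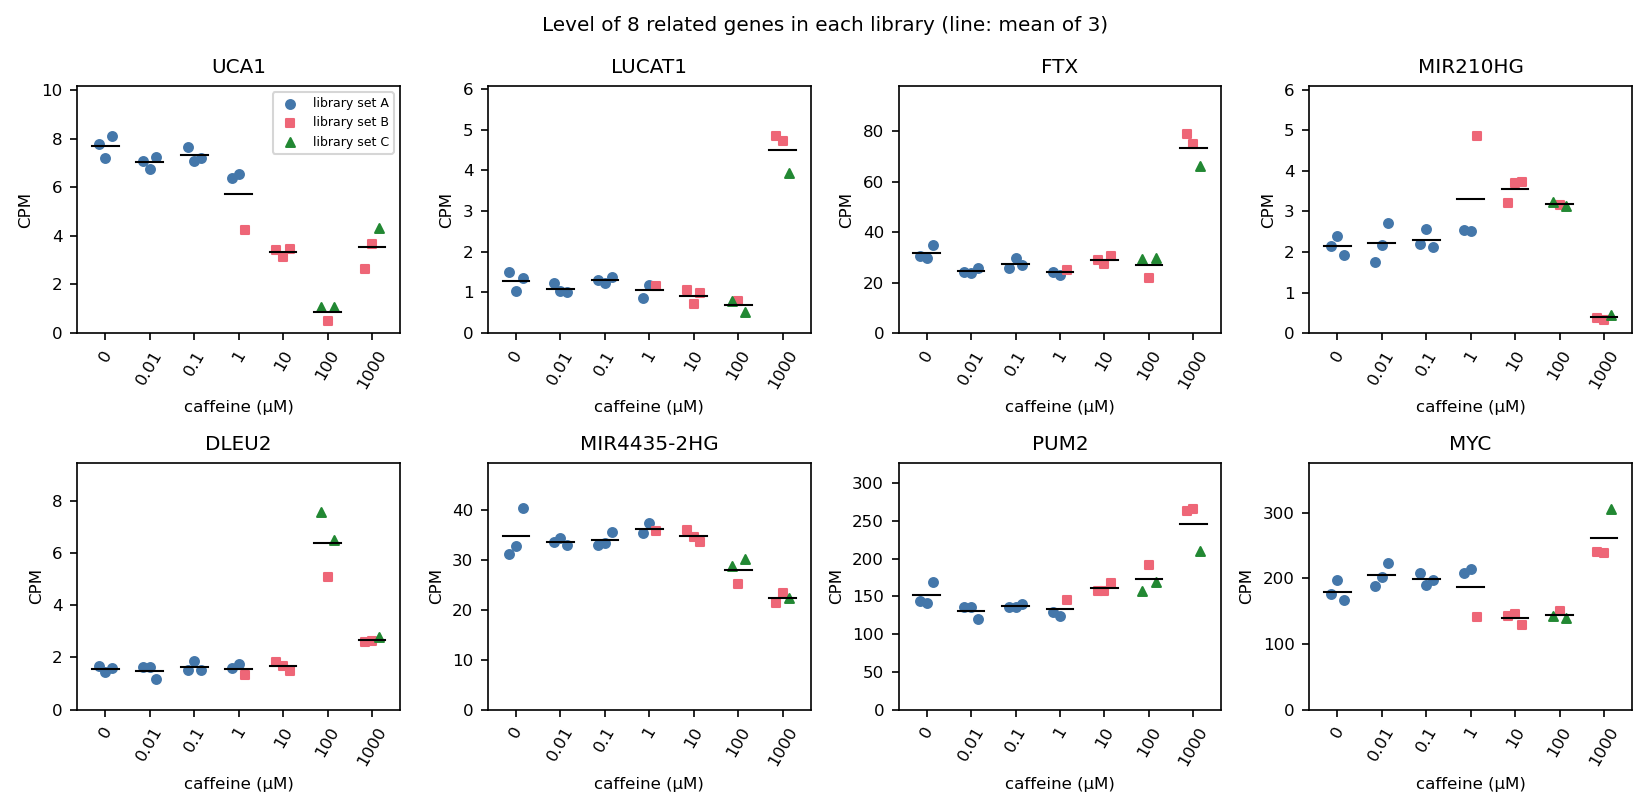
Level of 8 related genes in every library, in CPM on linear axes from 0, against the caffeine concentration in µM (categories, not to scale). Points are single libraries with the library set as shape and colour, and lines are means of 3; UCA1 is lowest and DLEU2 highest at 100 µM, while LUCAT1 and FTX are highest at 1000 µM.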

How the data were processed

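Gene-level read counts of 21 HepG2 libraries were used as the authors deposited them, whole numbers without normalization. Per the submitters' processing notes HISAT2, DESeq2 and GRCh38 were named; the annotation, the counting tool and the use of strand are not given in the sources used here. Another 21 columns with values per sample were left out. Symbols came from Ensembl identifiers, and coordinates and exon lengths from GENCODE 29, so the authors' gene models may have been others.

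With edgeR 4.0.16 in R 4.3.3, counts were scaled by TMM, filtered with filterByExpr and put through the 2-sided quasi-likelihood F-test, in 1 fit over all libraries. P-values were adjusted by the Benjamini-Hochberg method over all features tested in a fit, 17951 in the main fits, with a threshold of 0.05. Comparisons within set A or set B were fitted on the libraries of that set alone, over 17311 and 18323 features. Standard errors were taken from the F statistic, intervals as 1.96 standard errors, and a prior count of 2 went into log2 CPM values. Library sets came from average-linkage clustering of mitochondrial messenger RNAs, with 3 clusters at a mean silhouette of 0.675. The fits were tested on simulated counts. Intervals on counts and the floor of 3 counts cover counting error only.

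The 8 genes are all named. Of each list up to 4 called genes with the smallest p at 1000 µM were named, and of the wider list up to 6, with up to 4 at 100 µM; 11 further genes were named whatever their values, as were the 3 genes most like each member by Pearson r (shown for 4 of them). OVCH1-AS1 was named for its shared sequence, and SMARCA4, PSPC1 and RBM14 as the paraspeckle genes that fell. The genes, lists and tests were chosen with earlier results of these data known.

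In none of 21 pairs of groups did all 3 same-numbered replicate pairs correlate above 0.1 in their deviations from the group means, so the numbers were not used to pair libraries. Between 100 and 1000 µM replicates 2 and 3, which share library sets, correlated at 0.413 and 0.356, and replicate 1 at -0.311. Alternatives were DESeq2 size factors, DESeq2 1.42.0, limma-voom (limma 3.58.1), all features unfiltered, a minimum mean of 5 CPM, a replicate block, the library set as a term, only the 2 groups compared, annotated genes only, single library sets and each library left out in turn.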

Additional observations from a re-analysis of the deposited data

How the results depend on the processing

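The numbers of tested genes called were recomputed under each alternative. At 0.01 µM the library set as a term gave 1 called gene in place of 0. At 10 µM the set term, and the set term with a replicate block, gave 0 in place of 1, and leaving out 1 library at a time gave 0 to 1. At 100 µM, in place of 2, DESeq2, all features unfiltered, a minimum mean of 5 CPM and only the 2 groups compared each gave 1. These were MALAT1, H19, MALAT1 and NORAD, in that order. The set term gave 0 there, also with a replicate block, and leaving out 1 library gave 1 to 2. Leaving out 1 library gave 2 to 4 at 1000 µM, where 3 were called, and 2 to 4 for 1000 against 100 µM with the set term, where 4 were. The value of MALAT1 at 100 µM turned to 0.10 (adjusted p = 0.9) under the set term with a replicate block, and the cause was not tested. Under the replicate block alone 3 genes were called at 1000 µM, as without it, and the block without the set term changed no number called. The mean correlation of same-numbered libraries was -0.108 to 0.152 over pairs of groups, and the labels tie the numbers to no shared source. Of single genes, 1929 values kept their side of the threshold, 42 lost and 10 gained a call, and 1 called value turned its direction. A value not called in either fit was counted as kept even if its direction turned, and the joint test has no direction. Scaling moved the median of all features by at most 0.02. H19 and HULC are limited by depth, with counts of 0 to 9 and 15 to 41 per library.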
